A study of Mus musculus and Rattus norvegicus with 51 samples.

Results

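The comparison described here is that of HSC-T6 cells given the form of HMGB1 labelled [SO3] with HSC-T6 cells given the form labelled [O], across all genes of the cell table. HSC-T6 is an immortalised line derived from rat hepatic stellate cells, so every library comes from 1 line. The libraries were chosen by their labels alone: 3 libraries labelled [SO3] and 3 labelled [O], which are 6 of the 51 samples of the series and 6 of its 12 cell libraries. The table held 17327 genes, of which 10140 had enough counts to be tested. All 12 cell libraries carry the labels rat, male, wild type and 6 hours, and the groups differ only in the protein given: [SO3] HMGB1, [O] HMGB1, [H] HMGB1 or bovine serum albumin (BSA). The labels give no dose and do not spell out the 3 forms. BSA was given in place of HMGB1, so its libraries show on which side of cells without added HMGB1 each difference lies. The [H] libraries were not compared, and entered only through the filter on low counts, the scaling and the estimate of the spread. The remaining samples are mouse livers and were not analysed here.

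HMGB1 is a chromatin protein of the nucleus that acts as an alarm signal once cells release it, through receptors that include RAGE (the product of Ager), TLR4 with its partner MD-2 (the product of Ly96), and TLR2. Its cysteines can be reduced, joined by a disulfide bond or oxidised further, and the chemokine CXCL12 can pair with it. Stellate cells store retinoids in the resting liver and, after injury, become contractile producers of collagen that also secrete chemokines and growth factors.

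Levels are given in CPM, the counts of a gene relative to the scaled total of its library, each as 3 values in the order of libraries 1, 2 and 3 of a group. BSA levels are the mean ± SD of 3 libraries. Differences are log2 fold changes of [SO3] over [O] with their standard error (SE). A gene was called, and is said to have risen or fallen with [SO3], at a Benjamini-Hochberg adjusted p under 0.05 in edgeR's quasi-likelihood test. The labels do not say that the 3 libraries of a group came from separate cultures, so each p-value is set against library-to-library spread that may be technical.

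The [SO3] libraries held 15849085 to 16981255 gene counts, the [O] libraries 16121202 to 16883214 and the BSA libraries 11752661 to 14557156. The share of the 10 leading genes was 9.04% to 9.48% of the counts with [SO3], against 11.2% to 11.4% with [O]. No 2 libraries were identical, and all pairs within a group differed by more than counting error. Of 14 stellate cell and fibroblast markers, 10 reached 1 CPM, with a summed level of 49585 to 52873 CPM with [SO3] and 66347 to 68964 CPM with [O]. Col1a1 and Col3a1 made up most of this sum. Other markers did not all move with it: Acta2 fell (log2 -0.98), Des rose (log2 0.31) and Vim was not called. The stellate cell markers Lrat, Reln and Gfap were at or near 0. Of 12 macrophage markers 1 reached 1 CPM and 6 were at 0 in every library, with a sum of 3.03 to 3.88 CPM with [SO3] and 1.22 to 1.67 CPM with [O]. Most of the macrophage counts were those of Cd68, at 41, 52 and 55 with [SO3] and 18, 20 and 22 with [O]. Hepatocyte markers summed to 1.16 to 2.47 CPM with [SO3] and 0.428 to 0.708 CPM with [O]. With [SO3] this sum was mostly that of Apoa1, at 33, 20 and 17 counts, against 3, 3 and 3 with [O]. Endothelial markers summed to 33.1 to 40.5 CPM with [SO3] and 34.8 to 34.99 CPM with [O], and mesothelial ones to 53.8 to 55.9 CPM with [SO3] and 74.2 to 75.8 CPM with [O]. Cholangiocyte markers summed to 8.31 to 9.59 CPM with [SO3] and 25.1 to 27.9 CPM with [O]. This sum was that of Sox9 almost alone, since Krt19 was at 0 and Epcam at or near 0 in every library. Markers of lymphocytes and neutrophils were at or near 0. The part of these marker genes in the results was not tested. In bulk RNA, fewer cells of a kind and less RNA per cell cannot be told apart. Library 3 of [SO3], library 2 of [O] and library 3 of BSA stood above their groups in interferon-induced genes, which is set out with those genes.

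Of the genes tested, 59.2% were called: 2953 were higher with [SO3] than with [O] (29.1%) and 3047 lower (30%). All 3 [SO3] libraries were above all 3 [O] libraries in 30.6% of the genes tested and below them in 31.7%. Most of these differences were small: the median size of a called difference was 0.36 on the log2 scale, and the median over all genes tested was -0.0016. At 2-fold or more, 673 genes differed (6.64%): 272 rose (2.68%) and 401 fell (3.95%). The falls were the larger differences. At 4-fold or more, 51 genes rose and 94 fell, and at 8-fold or more 9 rose and 44 fell. Of the 673 genes that differed by 2-fold or more, 164 stood on at least 1 of the 42 gene lists used below.

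**Figure D1:**
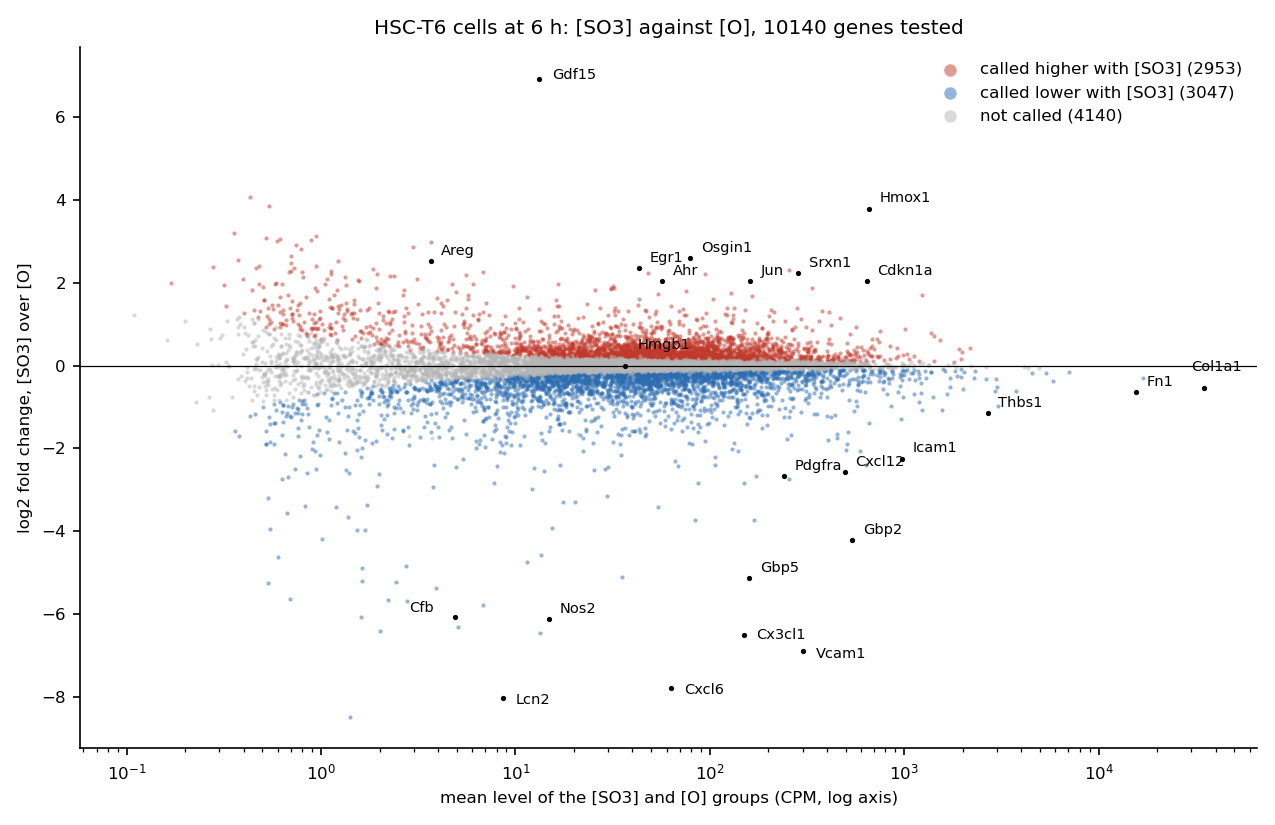
Each point is 1 of the 10140 genes tested, with its mean level over the [SO3] and [O] groups (CPM, log axis) against its log2 fold change of [SO3] over [O]. Called genes are red (2953 higher) or blue (3047 lower), and the named genes span from Gdf15 at 6.92 to Lcn2 at -8.01. The lowest point, Csf3, is drawn at a fitted value that is no bound, since it was at 0 in every [SO3] library.

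The largest rise among called genes that averaged at least 5 CPM in a group was that of Gdf15, a stress-induced cytokine of the TGF-beta superfamily, at 27.0, 26.6 and 25.5 CPM with [SO3], against 0.367, 0.0636 and 0.193 CPM with [O]. Its [O] counts were 6, 1 and 3, so the log2 fold change of 6.92 (SE 0.19) rests on few counts on that side and was 7.60 without [O] library 1. Hapln3, a link protein of hyaluronan and proteoglycans, rose (log2 2.87), as did Zfand2a, a zinc finger protein induced by arsenite and proteasome stress (log2 2.29). Ahr, the aryl hydrocarbon receptor, was at 88.9, 91.2 and 95.04 CPM with [SO3], against 22.5, 24.6 and 20.2 CPM with [O] (log2 fold change 2.03, SE 0.06, adjusted p = 2.66e-19). Every [SO3] library was above every [O] library for these 4 genes, which was a condition for naming a gene among the largest rises. Pvrl1, which encodes the adhesion protein nectin-1, rose (log2 2.24), as did Nlgn3, a neuroligin (log2 2.09) and Mfap3l (log2 2.18).

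On the other side, Lcn2, the iron-siderophore binding protein lipocalin-2, had 3 counts in all over the [SO3] libraries and 822 over the [O] libraries. The ratio of [SO3] to [O] was 0.00341 (95% exact interval 0.000702 to 0.01001, counting error only), and the fitted log2 fold change of -8.01 became -8.87 without [SO3] library 1. Enpp2, which encodes autotaxin, the enzyme that makes lysophosphatidic acid, was at 0.124, 0.0571 and 0.349 CPM with [SO3], against 5.20, 4.96 and 5.66 CPM with [O] (log2 fold change -4.84, SE 0.30, adjusted p = 4.98e-13, and log2 -5.77 without [SO3] library 3). Cyp7b1, an oxysterol hydroxylase, was at 2.47, 2.23 and 1.28 CPM with [SO3], against 69.9, 67.2 and 69.3 CPM with [O] (log2 fold change -5.11, SE 0.11, adjusted p = 2.04e-22). For these 3 genes the [O] libraries were all far above the [SO3] libraries, and a lack of overlap was again a condition for naming them. Angptl4, an inhibitor of lipoprotein lipase, fell (log2 -5.37), as did Fgr, a Src-family kinase (log2 -6.31) and Klhl38 (log2 -5.68).

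The lists below were taken as groups of known role, and each count covers the members that passed the filter on low counts. A member that passed only because of the group in which it was high had to differ, so these counts describe the lists and are not a test of them. They are read against the 29.1% of all genes that were called higher and the 30% called lower. In 13 of the 42 lists both shares lay within 15 percentage points of these, a width chosen after the counts were seen, and nothing is read from their counts: the lists of cytokines, growth factors, the unfolded protein and integrated stress responses, DNA replication, PDGF, TGF-beta and BMP signalling, Notch, Wnt, cholesterol, fatty acid synthesis, resting stellate cells, HMGB1 receptors, and autophagy.

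**Figure D2:**
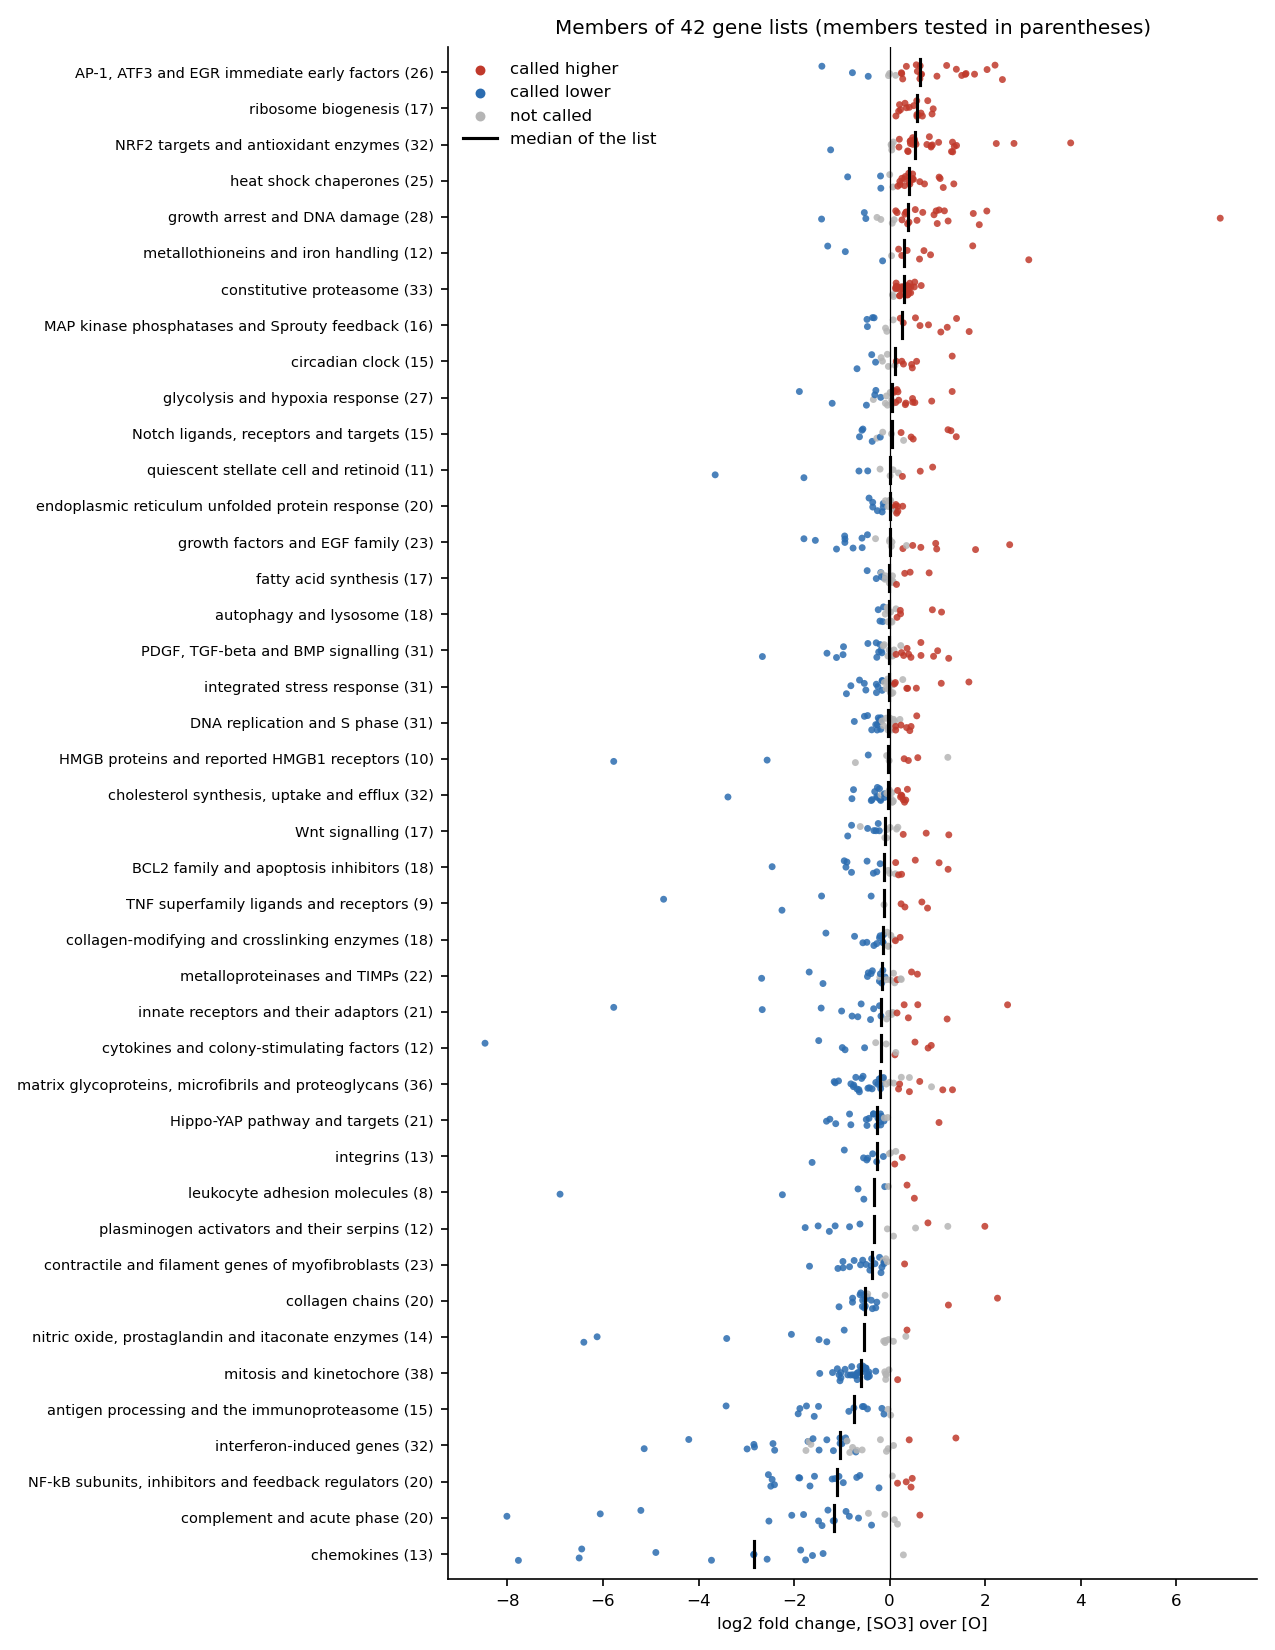
Each row is 1 of 42 gene lists, ordered by its median, with the number of members tested in parentheses. Points are the members' log2 fold changes of [SO3] over [O] (red called higher, blue called lower, grey not called), and black bars are medians, from -2.84 for chemokines to 0.64 for immediate early factors. Csf3, the leftmost point, is drawn at a fitted value that is no bound.

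Chemokines were much lower with [SO3]. Of 33 chemokines in the table, 13 were tested, and 12 fell while the other, Ccl27, was not called, with a median of -2.84 against -0.0016 for all genes. Cx3cl1, fractalkine, which captures cells with the receptor CX3CR1, was at 2.97, 2.85 and 3.95 CPM with [SO3], against 303, 296 and 287 CPM with [O] (log2 fold change -6.50, SE 0.08, adjusted p = 2.36e-26). Cxcl12, the ligand of CXCR4, was at 146, 146 and 139.7 CPM with [SO3], against 864, 838 and 851 CPM with [O] (log2 fold change -2.57, SE 0.04, adjusted p = 4.70e-25). Ccl2, the main monocyte attractant of this family, was at 386, 382 and 321 CPM with [SO3], against 922, 951 and 987 CPM with [O] (log2 fold change -1.39, SE 0.07, adjusted p = 4.11e-11). No [SO3] library reached an [O] library in any of the 3. The level with BSA separates them: it was 1.41 ± 0.434 CPM for Cx3cl1, 210.2 ± 9.65 CPM for Cxcl12 and 49.7 ± 2.55 CPM for Ccl2.

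Each form was also compared with BSA. These comparisons share the [SO3] and [O] libraries with the first, and share the BSA libraries with each other, so their values are given side by side and are not independent. Against BSA, 31.1% of all genes were called higher and 32.2% lower with [SO3], and 23.7% higher and 20.2% lower with [O]. Of the 13 chemokines, 8 were above BSA with [SO3] and 12 with [O]. Ccl2 was above BSA by a log2 fold change of 2.87 with [SO3] and 4.26 with [O], and Ccl7, another monocyte attractant, by 2.35 with [SO3] and 5.20 with [O]. Cxcl12 was below BSA with [SO3], at -0.55, and above it with [O], at 2.02. The neutrophil attractants Cxcl1, Cxcl2 and Cxcl3 are close relatives whose reads may be split, and they fell, at log2 fold changes of -1.76, -1.86 and -3.73. Ccl20, which attracts cells bearing CCR6, fell (log2 -6.45, and -7.13 without [SO3] library 2). Cxcl16, a membrane-bound ligand of CXCR6, fell (log2 -1.62).

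Of 8 leukocyte adhesion molecules tested (14 in the table), 5 fell and 2 rose, with a median of -0.32. Of these, Icam1 and Vcam1 fell by 2-fold or more. Icam1, the ligand of leukocyte integrins, was at 345, 339 and 339.8 CPM with [SO3], against 1636, 1601 and 1618 CPM with [O] (log2 fold change -2.25, SE 0.03, adjusted p = 1.62e-25), and at 136 ± 4.28 CPM with BSA. Vcam1, which binds the integrin VLA-4, was at 5.13, 5.59 and 4.36 CPM with [SO3], against 645, 604 and 554 CPM with [O]. The [SO3] libraries of Vcam1 lay below its BSA level of 6.88 ± 0.863 CPM, whereas those of Icam1 lay above BSA. Cd47, the signal that restrains phagocytes, fell (log2 -0.66), as did Ncam1, a neural adhesion molecule also made by stellate cells (log2 -0.54). Mcam rose (log2 0.52), as did Jam3, a junctional adhesion molecule (log2 0.36).

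The receptors and adaptors that sense danger signals split between the directions. Of 21 tested (24 in the table), 11 fell and 6 rose. Tlr2 was at 0.0618, 0.171 and 0.465 CPM with [SO3], against 12.7, 14.3 and 13.0 CPM with [O] (log2 fold change -5.78, SE 0.23, adjusted p = 1.16e-16, and log2 -6.72 without [SO3] library 3). Tlr4 was at 69.5, 64.7 and 78.6 CPM with [SO3], against 54.8, 53.6 and 53.9 CPM with [O] (log2 fold change 0.39, SE 0.06, adjusted p = 2.24e-06). Tlr2 was thus close to 0 in all [SO3] libraries, while for Tlr4 the [SO3] libraries were the higher ones and the groups did not overlap. Ripk2, the kinase that carries signals from NOD receptors, was at 46.4, 48.5 and 45.4 CPM with [SO3], against 296, 300.2 and 294 CPM with [O] (log2 fold change -2.67, SE 0.05, adjusted p = 1.66e-24). Irak3, a brake on Toll-like receptor signalling, fell (log2 -1.43), as did Nlrp3, the sensor of an inflammasome (log2 -1.01) and Tlr3, a sensor of double-stranded RNA (log2 -0.79). Il18r1, a subunit of the IL-18 receptor, rose (log2 2.47) from low levels (1.11, 1.20 and 1.28 CPM with [SO3], against 0.306, 0.191 and 0.129 CPM with [O]), as did Tlr5, the flagellin receptor (log2 1.20).

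Genes of the NF-kB pathway, which switches on many of these chemokines, were mostly lower with [SO3], subunits, inhibitors and feedback regulators among them. Of 20 tested, 15 fell and 4 rose, with a median of -1.10. Nfkb1, the gene of the p50 subunit, was at 123, 127 and 127 CPM with [SO3], against 399, 398 and 400.2 CPM with [O] (log2 fold change -1.67, SE 0.04, adjusted p = 3.08e-20), and at 64.7 ± 5.48 CPM with BSA. Zc3h12a, an RNase that degrades cytokine messages, was at 205, 200.4 and 196 CPM with [SO3], against 1107, 1026 and 1064 CPM with [O] (log2 fold change -2.41, SE 0.05, adjusted p = 5.55e-23). In both genes the [SO3] libraries lay between BSA and [O]. Bcl3, an atypical inhibitor-like cofactor, fell (log2 -2.49), as did Map3k8, the kinase TPL2 (log2 -2.54), and Tnip1, a partner of the deubiquitinase A20 (log2 -1.90). Nfkbia, which encodes the classical inhibitor IkB-alpha, fell (log2 -1.20), yet stood above BSA by 2.22 with [SO3] and 3.43 with [O]. Map3k14, the kinase NIK of the non-canonical pathway, rose (log2 0.47), as did Tnip2 (log2 0.45) and Traf3, an inhibitor of NIK (log2 0.16).

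Cytokines were called in both directions at shares near those of all genes. Of 12 tested (23 in the table), 5 fell, 4 rose and 3 were not called. Il6, the cytokine that drives the acute phase response, was at 76.4, 72.8 and 68.0 CPM with [SO3], against 50.8, 48.6 and 51.0 CPM with [O] (log2 fold change 0.53, SE 0.05, adjusted p = 5.68e-09), and at 2.70 ± 0.265 CPM with BSA. Csf1, the growth factor of macrophages, was at 411, 421 and 464 CPM with [SO3], against 406, 407 and 389 CPM with [O] (log2 fold change 0.11, SE 0.04, adjusted p = 0.0295). Il15, which sustains natural killer and memory T cells, was at 1.92, 1.71 and 1.74 CPM with [SO3], against 5.20, 5.09 and 4.76 CPM with [O] (log2 fold change -1.49, SE 0.16, adjusted p = 1.54e-08). Csf1 lost its call without [SO3] library 3 (adjusted p = 0.254) or [O] library 3 (0.128). Il6 and Csf1 were thus higher and Il15 lower with [SO3], with no overlap between the groups. Csf3, the granulocyte growth factor, had no count in any [SO3] library and 53, 40 and 42 counts with [O], which makes it at least 48.1-fold lower against a floor of 3 counts over the group. Il1rn, the antagonist of the IL-1 receptor, fell (log2 -0.52). Clcf1, a cytokine of the IL-6 family, rose (log2 0.80). Csf2 (-0.99), at low levels, lost its call in DESeq2 (adjusted p = 0.129) and without [SO3] library 1 (0.0587) or [O] library 1 (0.0548). Il23a (0.87) lost its call in DESeq2 (adjusted p = 0.0715) and without [O] library 1 (0.0691).

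In the TNF superfamily, 4 of 9 tested genes fell and 4 rose (19 in the table). Tnfrsf9, the co-stimulatory receptor 4-1BB, fell (log2 -4.73), as did Tnfsf15 (log2 -2.25) and Fas, the death receptor (log2 -1.43). Tnfrsf12a, the receptor of TWEAK, was at 199.96, 192 and 181 CPM with [SO3], against 109, 105 and 116 CPM with [O] (log2 fold change 0.79, SE 0.05, adjusted p = 1.20e-13). Its [SO3] libraries were all higher. Tnfrsf10b, the receptor of the death ligand TRAIL, rose (log2 0.67), as did Tnfrsf1a, the main TNF receptor (log2 0.32).

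Among 14 enzymes of nitric oxide, prostaglandin and itaconate synthesis (24 in the table), 7 fell and 1 rose. Nos2, the inducible nitric oxide synthase, was at 0.433, 0.342 and 0.465 CPM with [SO3], against 30.3, 30.8 and 26.8 CPM with [O] (log2 fold change -6.12, SE 0.17, adjusted p = 3.49e-20). Pla2g2a, a secreted phospholipase, was at 10.9, 10.3 and 6.62 CPM with [SO3], against 98.3, 96.4 and 101 CPM with [O] (log2 fold change -3.41, SE 0.09, adjusted p = 1.09e-17), and Sod2, the mitochondrial superoxide dismutase, at 231, 234 and 222 CPM with [SO3], against 943, 963 and 955 CPM with [O] (log2 fold change -2.06, SE 0.04, adjusted p = 1.37e-22). No library of one group reached the other group in these 3 genes. Irg1, the enzyme that makes itaconate, had 2 counts in all over the [SO3] libraries and 190 over the [O] libraries (ratio of [SO3] to [O] 0.00984, 95% exact interval 0.00118 to 0.0360). Gch1, which makes the cofactor of nitric oxide synthases, fell (log2 -1.48). Ptgs2, the inducible cyclooxygenase, was at 164, 161 and 162 CPM with [SO3], against 178, 171 and 167 CPM with [O] and was not called: the log2 difference was -0.08, with a 95% interval of -0.17 to 0.01. It stood above BSA by 2.59 with [SO3] and 2.68 with [O].

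Complement and acute phase genes were lower with [SO3] than with [O] in most cases. Of 20 tested (27 in the table), 15 fell and 1 rose, with a median of -1.17. Over the same members the median against BSA was 0.09 with [SO3] and 0.97 with [O]. Lbp, the lipopolysaccharide-binding protein, was at 6.98, 8.10 and 7.49 CPM with [SO3], against 45.2, 41.7 and 43.6 CPM with [O] (log2 fold change -2.53, SE 0.08, adjusted p = 4.10e-19), and at 7.04 ± 0.691 CPM with BSA. Cp, the copper-carrying ferroxidase ceruloplasmin, was at 184, 182 and 176 CPM with [SO3], against 618, 633 and 640.0 CPM with [O] (log2 fold change -1.80, SE 0.04, adjusted p = 1.11e-21), and at 215 ± 11.2 CPM with BSA. No [SO3] library of either gene came near the [O] libraries. Against BSA, [SO3] was not called for Lbp (log2 0.09) and was lower for Cp (-0.25). Il6st, which encodes the shared receptor subunit gp130, was at 555, 543 and 577 CPM with [SO3], against 1378, 1367 and 1358 CPM with [O] (log2 fold change -1.29, SE 0.03, adjusted p = 1.43e-20). Slc39a14, a zinc and iron importer, fell (log2 -2.05), as did Socs3, the feedback inhibitor of gp130 signalling (log2 -1.42). Cfb, a protease of the alternative complement pathway, fell (log2 -6.06), as did Steap4, a metalloreductase (log2 -5.21), and C3 (log2 -1.49). Without [SO3] library 3, Steap4 was at -6.41. Cd55, which shields cells from complement, was the only riser of the list, at 0.63.

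Antigen-processing genes were lower with [SO3], with 13 of 15 called lower and the others not called (16 in the table). Tapbp, tapasin, which loads peptides on class I molecules, was at 60.1, 55.0 and 55.7 CPM with [SO3], against 215, 209 and 204 CPM with [O] (log2 fold change -1.88, SE 0.05, adjusted p = 1.97e-20). Psmb10, a subunit of the immunoproteasome, was at 40.0, 42.7 and 38.2 CPM with [SO3], against 107, 114 and 118 CPM with [O] (log2 fold change -1.49, SE 0.05, adjusted p = 5.20e-18). The groups did not overlap in either gene. Against BSA, [SO3] was higher for Tapbp, at 0.28, and not called for Psmb10, at -0.03. Psmb8 and Psmb9, the other inducible subunits, fell, at log2 fold changes of -1.92 and -1.58, as did Tap2, part of the peptide transporter (log2 -1.74). Ciita, the master regulator of class II genes, fell (log2 -3.42) from low levels.

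Interferon-induced genes were mostly lower with [SO3] and also varied between the libraries of a group. Of 32 members tested, 27 were highest in library 3 within the [SO3] group, 29 in library 2 within the [O] group and 29 in library 3 within the BSA group. As a mean over these members on a log2(CPM + 0.5) scale centred on each gene, the [SO3] libraries were at -0.38, -0.38 and 0.18, the [O] libraries at 1.07, 1.37 and 0.85, and the BSA libraries at -0.57, -0.44 and 0.31. The cause of these within-group differences was not tested. With all libraries, 18 members fell with [SO3] and 2 rose, with a median of -1.04. The number that fell ranged from 16 to 21 when each library of the pair of groups was left out in turn.

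Several members had groups that did not overlap. Gbp2, a guanylate-binding GTPase, was at 52.0, 53.4 and 61.8 CPM with [SO3], against 1002, 1059 and 1023 CPM with [O] (log2 fold change -4.21, SE 0.08, adjusted p = 8.93e-17). Parp14, a mono-ADP-ribosyltransferase, was at 30.5, 27.8 and 43.4 CPM with [SO3], against 174, 202 and 164 CPM with [O] (log2 fold change -2.41, SE 0.17, adjusted p = 1.97e-06). In each, the lowest [O] library was above the highest [SO3] library by more than the spread within either group. Gbp5 fell (log2 -5.14), as did Gbp4 (log2 -2.98), though genes of this family are similar enough to share reads. Cxcl10, the chemokine of activated T cells, was at 11.9, 13.3 and 38.6 CPM with [SO3], against 152, 170.03 and 138 CPM with [O] (log2 fold change -2.84, SE 0.46, adjusted p = 6.79e-04), and without [SO3] library 3 its log2 fold change was -3.60. Cmpk2, a mitochondrial nucleotide kinase, fell (log2 -2.44), as did Ifi47, an immunity-related GTPase (log2 -2.83).

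Other members had overlapping groups. Rsad2, which encodes the antiviral enzyme viperin, was at 2.66, 4.28 and 23.5 CPM with [SO3], against 36.2, 39.4 and 20.5 CPM with [O], and at 2.86, 2.48 and 19.6 CPM with BSA. [SO3] library 3 exceeded [O] library 3, and the gene was not called (log2 fold change -1.65, SE 0.77, adjusted p = 0.0989); without [SO3] library 3 it was called, at -3.20 and adjusted p = 0.0112. Mx2, an antiviral GTPase, was at 8.34, 8.16 and 19.3 CPM with [SO3], against 13.6, 37.3 and 7.01 CPM with [O] (log2 fold change -0.69, SE 0.82, adjusted p = 0.503). Its sign turned without [O] library 2, at 0.21. Against the direction of the list, Irf1, a transcription factor of interferon responses, was at 93.5, 96.0 and 101 CPM with [SO3], against 76.7, 70.2 and 72.3 CPM with [O] (log2 fold change 0.41, SE 0.05, adjusted p = 5.70e-08), and Isg20, an exonuclease, at 16.4, 14.7 and 14.5 CPM with [SO3], against 6.12, 5.79 and 5.47 CPM with [O] (log2 fold change 1.39, SE 0.10, adjusted p = 7.71e-12). Both were higher in every [SO3] library.

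**Figure D3:**
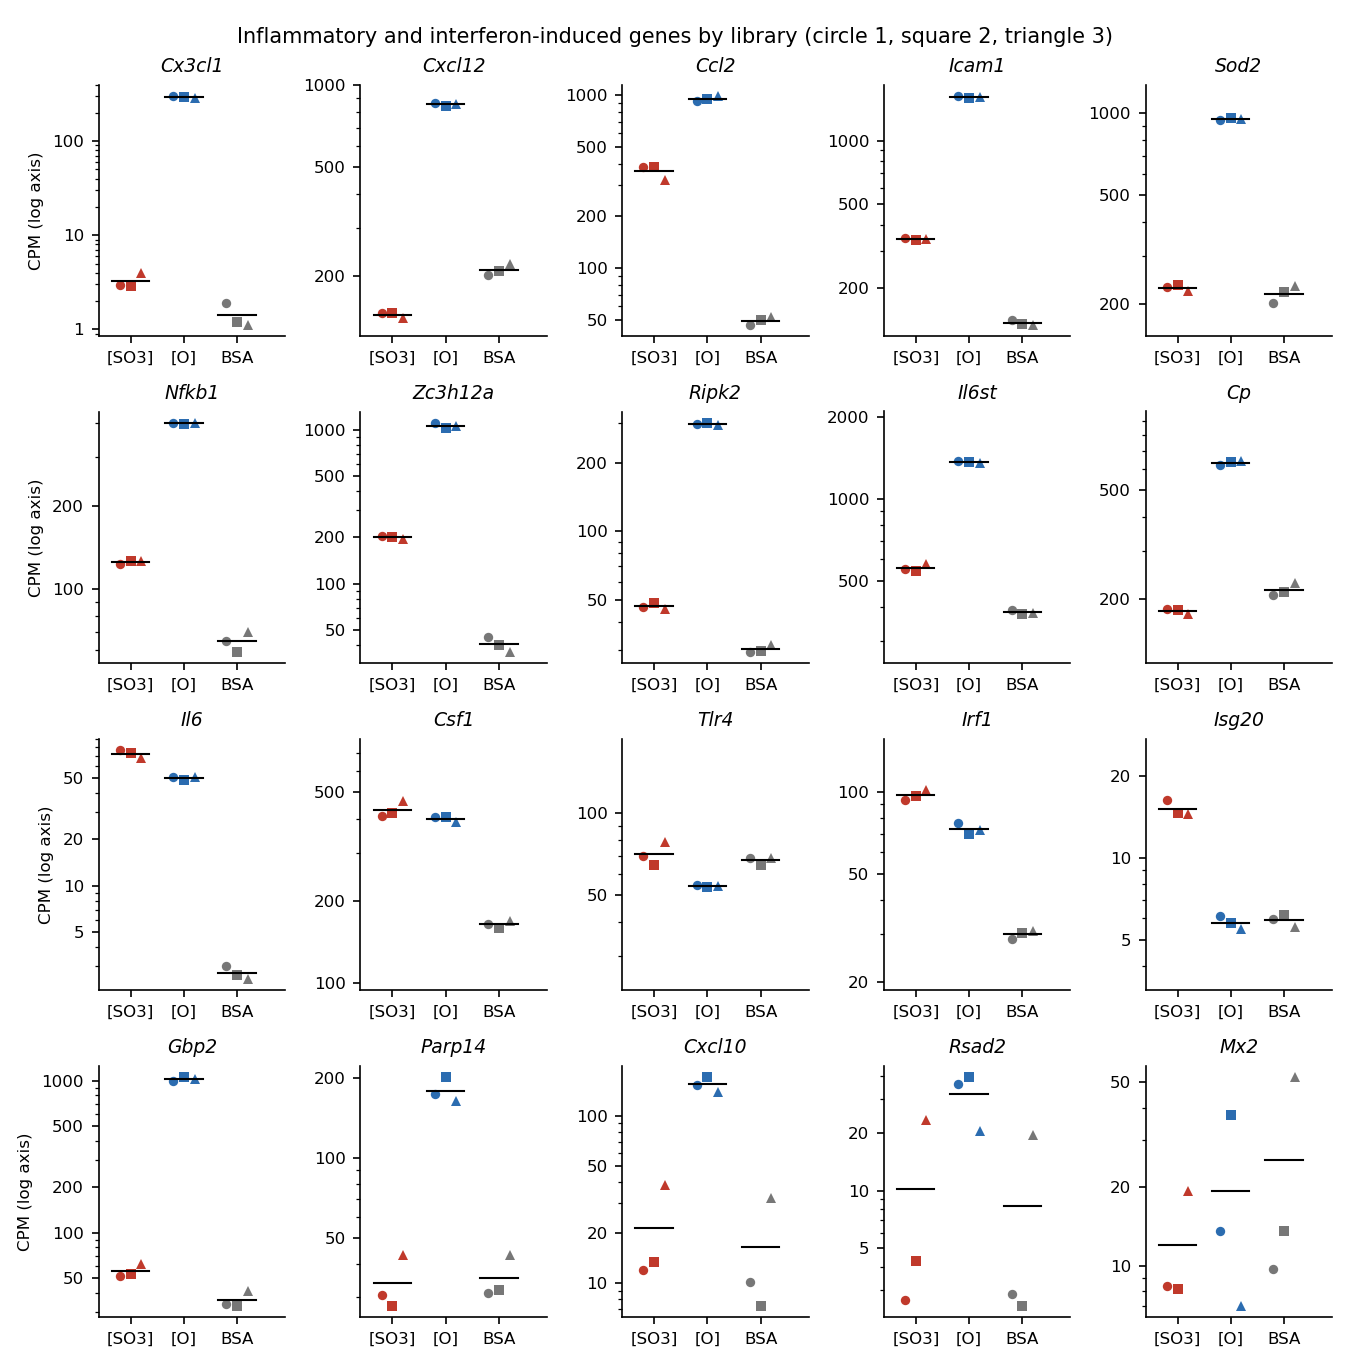
Levels of 20 inflammatory and interferon-induced genes by library (CPM, log axis, scaled separately for each gene), for [SO3] (red), [O] (blue) and BSA (grey), with 3 libraries each as circle, square and triangle and the group mean as a bar. [SO3] lay below [O] in chemokine, NF-kB and acute phase genes and above it in Il6, Csf1, Tlr4, Irf1 and Isg20, while for Rsad2 and Mx2 the libraries of the groups overlapped.

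Genes of the antioxidant response under NRF2, the factor that binds antioxidant response elements, rose together with [SO3]. Of 32 tested (34 in the table), 26 rose and 1 fell, with a median of 0.53. Against BSA, 29 of them were higher with [SO3] and 9 with [O]. Srxn1, sulfiredoxin, which repairs overoxidised peroxiredoxins, was at 475, 462 and 475 CPM with [SO3], against 105, 96.6 and 98.6 CPM with [O] (log2 fold change 2.23, SE 0.05, adjusted p = 9.95e-23). Gclc, the catalytic subunit of the enzyme that begins glutathione synthesis, was at 401, 408 and 413 CPM with [SO3], against 154, 149 and 159.9 CPM with [O] (log2 fold change 1.40, SE 0.04, adjusted p = 9.06e-20). Txnrd1, thioredoxin reductase, was at 525, 537 and 561 CPM with [SO3], against 220.4, 216 and 215 CPM with [O] (log2 fold change 1.32, SE 0.04, adjusted p = 7.12e-20). In all 3 genes every [SO3] library was higher. Against BSA, the log2 values of Srxn1 were 2.63 with [SO3] and 0.40 with [O], and those of Gclc 1.11 with [SO3] and -0.29 with [O]. Gclm, the modifier subunit of the same enzyme, rose (log2 1.31), as did Gsr, glutathione reductase (log2 1.35), and Slc7a11, the cystine importer (log2 1.29). Osgin1, an oxidative stress-induced growth inhibitor, rose (log2 2.60), as did Hmox1, which breaks down heme (log2 3.79).

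Enzymes that supply NADPH also rose: Me1 (log2 1.02), Pgd (log2 0.83) and Taldo1 (log2 0.53). Nqo1, a quinone reductase often used as a readout of NRF2, was at 1798, 1709.9 and 1674 CPM with [SO3], against 964, 1008 and 1047 CPM with [O] (log2 fold change 0.78, SE 0.04, adjusted p = 4.44e-15). It was above BSA with [SO3], at 0.47, and below BSA with [O], at -0.30. Keap1, the adaptor that marks NRF2 for degradation, rose (log2 0.55). Nfe2l2, the gene of NRF2 itself, was at 333, 324 and 324 CPM with [SO3], against 319, 312 and 330.5 CPM with [O] and was not called, with a 95% interval of -0.06 to 0.11 on the log2 scale. Ugdh, which makes UDP-glucuronate, was the member that fell, at 258, 246 and 251 CPM with [SO3], against 588, 579.6 and 613 CPM with [O] (log2 fold change -1.24, SE 0.04, adjusted p = 1.64e-18), and was above BSA with both forms.

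Among 12 metallothionein and iron genes tested (16 in the table), 8 rose and 3 fell. Mt1a, a zinc-binding metallothionein, was at 88.9, 82.8 and 78.1 CPM with [SO3], against 24.2, 23.9 and 26.8 CPM with [O] (log2 fold change 1.74, SE 0.07, adjusted p = 5.68e-17). All [SO3] libraries were higher, although Mt1a and its relative Mt2A can share reads. Slc30a1, which exports zinc, rose (log2 0.86). The ferritin chains Fth1 and Ftl1, which store iron, rose, at log2 fold changes of 0.72 and 0.62, and Slc40a1, the iron exporter ferroportin, was at 1.61, 1.26 and 1.10 CPM with [SO3], against 0.122, 0.191 and 0.193 CPM with [O] (log2 fold change 2.91, SE 0.38, adjusted p = 4.14e-07). Slc11a2, the iron importer DMT1, was at 62.7, 59.2 and 65.2 CPM with [SO3], against 155, 145 and 159.7 CPM with [O] (log2 fold change -1.30, SE 0.05, adjusted p = 1.94e-17), with [SO3] lower in every library.

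Heat shock genes, a list of cytosolic and mitochondrial chaperones, their cofactors and the transcription factors Hsf1 and Hsf2, rose modestly, with 20 of 25 called higher, 3 lower and a median of 0.40. Hspb8, a small heat shock protein, was at 304, 294 and 289 CPM with [SO3], against 115, 117 and 118 CPM with [O] (log2 fold change 1.34, SE 0.04, adjusted p = 1.35e-19), and Bag3, its partner in selective autophagy, at 384, 391 and 438 CPM with [SO3], against 185, 189 and 184 CPM with [O] (log2 fold change 1.12, SE 0.05, adjusted p = 1.51e-16). Neither gene had overlapping groups, and both were below BSA with [O], at -0.34 and -0.20. Hsp90aa1, the stress-inducible HSP90, rose (log2 0.47) and Hspa4l, a chaperone cofactor, fell (log2 -0.88). Hspa1b, counted among those that rose (log2 1.06), is uncertain, because its level was low and it may share reads with its paralog Hspa1a, which was not tested. Of 33 constitutive proteasome genes, 29 rose, each by less than 2-fold, and the others were not called, with Psmd11, a subunit of the regulatory lid, at 218, 216 and 221 CPM with [SO3], against 141, 135 and 139 CPM with [O] (log2 fold change 0.66, SE 0.04, adjusted p = 2.97e-13). The immunoproteasome subunits given above moved the other way.

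Stress genes of the endoplasmic reticulum and of amino acid supply were called in both directions at shares near those of all genes. Of 20 genes of the unfolded protein response, 6 rose and 7 fell, all within 2-fold, and the number that rose was 3 without [O] library 1. Hsp90b1, the chaperone GRP94, fell (log2 -0.14), as did Atf6, a sensor of this response (log2 -0.36). Of 31 genes of the integrated stress response, 7 rose and 11 fell. Slc1a4, a neutral amino acid transporter, was at 327, 324 and 344 CPM with [SO3], against 159, 162 and 149 CPM with [O] (log2 fold change 1.08, SE 0.04, adjusted p = 7.58e-17). Cebpb, a transcription factor of inflammation and amino acid stress, was at 32.2, 38.5 and 36.4 CPM with [SO3], against 74.2, 72.5 and 54.0 CPM with [O] (log2 fold change -0.91, SE 0.16, adjusted p = 9.98e-04). The groups did not overlap in either, and they moved in opposite directions. Ppp1r15a, the phosphatase subunit that ends this response, rose (log2 0.56), as did Ddit3, which encodes CHOP (log2 0.36), while Slc7a5, a leucine transporter, fell (log2 -0.63).

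Genes of growth arrest and DNA damage were mostly higher with [SO3]. Of 28 tested (29 in the table), 21 rose and 3 fell, with a median of 0.39. Cdkn1a, which encodes the cell cycle inhibitor p21, was at 1063, 1040.3 and 993 CPM with [SO3], against 251, 253 and 252 CPM with [O] (log2 fold change 2.03, SE 0.04, adjusted p = 1.14e-23), and at 189 ± 6.43 CPM with BSA. Mdm2, a ubiquitin ligase, was at 536, 530.01 and 523 CPM with [SO3], against 138, 139.8 and 155 CPM with [O] (log2 fold change 1.88, SE 0.04, adjusted p = 2.90e-21), and at 128 ± 5.80 CPM with BSA. Btg2, an antiproliferative factor, was at 200.3, 195 and 201 CPM with [SO3], against 59.5, 60.2 and 57.5 CPM with [O] (log2 fold change 1.75, SE 0.05, adjusted p = 7.12e-20). Each of the 3 had every [SO3] library above every [O] library. Ccng1, cyclin G1, rose (log2 1.15), as did Tigar, which lowers glycolytic flux (log2 0.97). Gadd45b, a stress gene also under NF-kB, fell (log2 -0.53), and Fas and Ddit4 were the other members that fell.

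The BCL2 family and the apoptosis inhibitors divided, with 6 of 18 called higher and 9 lower. Bbc3, which encodes the death-promoting protein PUMA, was at 46.5, 46.5 and 43.0 CPM with [SO3], against 18.9, 20.2 and 19.2 CPM with [O] (log2 fold change 1.22, SE 0.07, adjusted p = 1.00e-13), and Pmaip1, which encodes NOXA, at 33.5, 36.8 and 37.5 CPM with [SO3], against 15.9, 19.1 and 17.6 CPM with [O] (log2 fold change 1.03, SE 0.08, adjusted p = 3.38e-11). Birc3, an inhibitor of apoptosis, was at 3.71, 3.82 and 3.89 CPM with [SO3], against 20.8, 21.8 and 20.4 CPM with [O] (log2 fold change -2.46, SE 0.09, adjusted p = 3.43e-17). The death-promoting pair was higher and Birc3 lower in every [SO3] library. Bax, the pore-forming effector, rose (log2 0.54). Bcl2l11, which encodes the death-promoting protein BIM, fell (log2 -0.95), as did Bid (log2 -0.89) and Cflar, the inhibitor of caspase-8 (log2 -0.47).

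Immediate early factors, the first genes to be switched on by kinase signals, were higher with [SO3] in 20 of 26 tested, and lower in 3, with a median of 0.64. Jun was at 254, 263 and 262 CPM with [SO3], against 67.1, 62.7 and 59.6 CPM with [O] (log2 fold change 2.04, SE 0.05, adjusted p = 6.14e-21), and at 67.0 ± 0.940 CPM with BSA. Fosl1, which encodes FRA-1, its partner in the AP-1 dimer, was at 148, 151 and 166 CPM with [SO3], against 33.0, 34.2 and 33.6 CPM with [O] (log2 fold change 2.20, SE 0.06, adjusted p = 3.49e-20), and at 14.7 ± 2.05 CPM with BSA. Egr1, a zinc finger factor of the same early wave, was at 68.9, 70.4 and 78.0 CPM with [SO3], against 14.9, 14.1 and 13.3 CPM with [O] (log2 fold change 2.36, SE 0.09, adjusted p = 6.60e-16). The [SO3] libraries of all 3 were higher, but for Jun [O] was not called against BSA (log2 -0.08), whereas Fosl1 was above BSA with [O] by 1.18. Atf3, a stress-induced repressor, rose (log2 1.60), as did Fosb (log2 1.78). Junb fell (log2 -0.45), as did Klf2 (log2 -0.78), and Srf, the serum response factor that drives cytoskeletal genes, was at 54.1, 51.6 and 53.3 CPM with [SO3], against 153, 136 and 136 CPM with [O] (log2 fold change -1.42, SE 0.06, adjusted p = 3.56e-15).

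Of 16 MAP kinase phosphatases and feedback inhibitors tested, 9 rose and 4 fell. The rises included several phosphatases: Dusp5, which acts on nuclear ERK, was at 14.6, 17.9 and 19.6 CPM with [SO3], against 4.40, 5.66 and 6.43 CPM with [O] (log2 fold change 1.66, SE 0.13, adjusted p = 4.05e-11), Dusp4 rose (log2 1.40), as did Dusp8 (log2 1.20) and Dusp1 (log2 1.07). Against BSA, Dusp1 was at 0.60 with [SO3] and -0.47 with [O], and Dusp4 at 0.35 with [SO3] and -1.05 with [O]. Spry2, an inhibitor of receptor tyrosine kinase signalling, fell (log2 -0.36), as did Spred2 (log2 -0.47) and Spred3 (log2 -0.47). The split was not complete, since the phosphatase Dusp7 also fell (log2 -0.33) and Spry1 rose (log2 0.22).

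Growth factors were called in both directions, also near the shares of all genes. Of 23 tested (28 in the table), 7 rose and 10 fell. Of 5 ligands of the EGF receptor tested, 3 rose and the other 2, Ereg (log2 0.0036) and Egf (log2 -0.30), were not called. Ereg, Egf and Nrg1 were added after their values were seen, to complete this group. Tgfa was at 114, 115 and 123 CPM with [SO3], against 33.3, 34.4 and 33.5 CPM with [O] (log2 fold change 1.80, SE 0.05, adjusted p = 7.56e-20), Areg, amphiregulin, at 6.24, 6.73 and 5.81 CPM with [SO3], against 1.22, 1.02 and 1.03 CPM with [O] (log2 fold change 2.51, SE 0.17, adjusted p = 5.67e-12) and Hbegf at 32.8, 31.0 and 34.6 CPM with [SO3], against 17.0, 16.4 and 17.0 CPM with [O] (log2 fold change 0.96, SE 0.07, adjusted p = 2.28e-11). The groups of Tgfa, Areg and Hbegf did not overlap. Nrg1, a ligand of other receptors of this family, fell (log2 -0.58), and the receptor gene Egfr fell (log2 -0.58). Hgf, the hepatocyte growth factor that stellate cells supply, was at 5.62, 7.13 and 5.52 CPM with [SO3], against 22.8, 21.1 and 19.7 CPM with [O] (log2 fold change -1.79, SE 0.10, adjusted p = 1.47e-13), and at 11.6 ± 1.31 CPM with BSA. Every [SO3] library was below the BSA mean and every [O] library above it. Inhba, a subunit of activin A, fell (log2 -1.11), as did Pgf, placental growth factor (log2 -1.56), Fgf10 (log2 -0.94) and Adam17, the protease that frees TNF and EGF ligands from the membrane (log2 -0.94). Kitlg, stem cell factor, rose (log2 0.98), as did Vegfa (log2 0.48).

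All 17 ribosome biogenesis genes were higher with [SO3], by a median of 0.57. Nolc1, a nucleolar scaffold, was at 240.01, 234 and 256 CPM with [SO3], against 130.4, 127 and 131 CPM with [O] (log2 fold change 0.91, SE 0.04, adjusted p = 2.90e-15), and Gnl3, nucleostemin, at 140.2, 138 and 141 CPM with [SO3], against 74.8, 71.4 and 80.3 CPM with [O] (log2 fold change 0.89, SE 0.05, adjusted p = 3.19e-14). Against BSA, 16 of them were higher with [SO3] and 12 with [O]. Myc, which drives this programme, was at 174, 176 and 179 CPM with [SO3], against 114, 113 and 114 CPM with [O] (log2 fold change 0.63, SE 0.04, adjusted p = 1.32e-12).

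**Figure D4:**
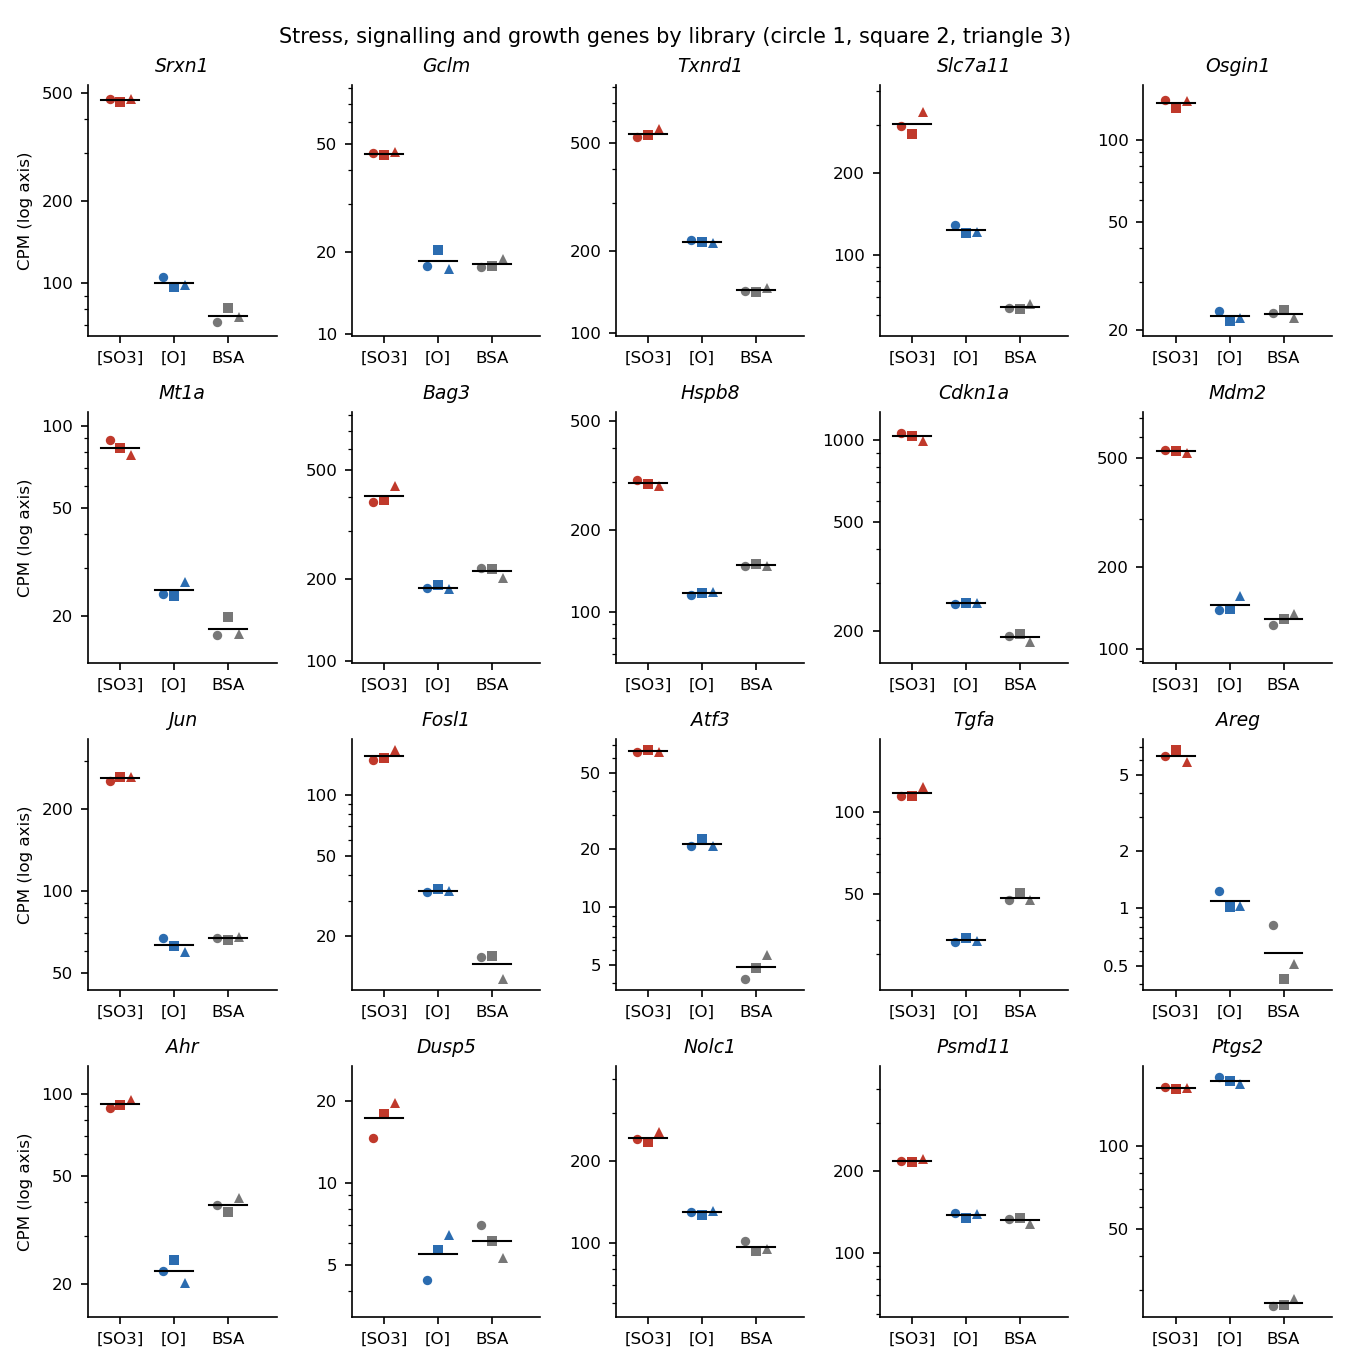
Levels by library (CPM, log axis, scaled separately for each gene) of 20 stress, signalling and growth genes named in the text, for [SO3] (red), [O] (blue) and BSA (grey), with 3 libraries each as circle, square and triangle and the group mean as a bar. [SO3] was above [O] in all of them but Ptgs2, whose log2 difference was -0.08 and which was above BSA with both forms.

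Collagen chains were lower with [SO3] in 16 of 20 tested (23 in the table) and higher in 2, with a median of -0.51. The chains of the fibrils of scar were among those that fell. Col1a1, the main chain of type I collagen, was at 29602, 27481 and 27718 CPM with [SO3], against 40449, 40958 and 41851 CPM with [O] (log2 fold change -0.54, SE 0.03, adjusted p = 1.74e-13), and at 38913 ± 1048 CPM with BSA. Col3a1, type III collagen, was at 15885, 14890.1 and 14919 CPM with [SO3], against 18128, 18725 and 19072 CPM with [O] (log2 fold change -0.29, SE 0.03, adjusted p = 4.12e-08), and at 21611 ± 753 CPM with BSA. Col5a1, which nucleates fibrils, was at 2271, 2249.8 and 2489 CPM with [SO3], against 3571, 3605 and 3482 CPM with [O] (log2 fold change -0.60, SE 0.04, adjusted p = 2.74e-13). The differences are less than 2-fold, but no [SO3] library reached an [O] library. Col1a1 was below BSA with [SO3], at -0.46, and slightly above it with [O], at 0.08, while Col3a1 was below BSA with both, at -0.50 with [SO3] and -0.21 with [O]. Col1a2, the other chain of type I collagen, fell (log2 -0.57), as did Col4a1, of basement membranes (log2 -0.52), and Col27a1, a fibrillar chain of cartilage (log2 -1.06). Col1a2 had only 854, 810 and 729 counts with [SO3] and 1107, 1118 and 1091 with [O]. Col1a1 had 478922, 481534 and 477119 counts with [SO3]. Why Col1a2 was counted so far below its partner chain was not tested, so its fall is uncertain. The risers were Col11a2 at 2.26 and Col7a1, of anchoring fibrils, at 1.23.

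Other matrix genes moved the same way more often than not, with 23 of 36 called lower and 6 higher (43 in the table). Thbs1, thrombospondin-1, which can activate TGF-beta, was at 1669, 1646 and 1722 CPM with [SO3], against 3718, 3625 and 3754 CPM with [O] (log2 fold change -1.14, SE 0.03, adjusted p = 5.91e-20). Vcan, the proteoglycan versican, was at 989, 952 and 1078 CPM with [SO3], against 2154, 2099 and 2088 CPM with [O] (log2 fold change -1.07, SE 0.04, adjusted p = 9.43e-18), and Emilin1, an elastic fibre glycoprotein, at 214, 210.1 and 214 CPM with [SO3], against 496, 471 and 460.5 CPM with [O] (log2 fold change -1.16, SE 0.04, adjusted p = 5.84e-18). All 3 were below BSA with [SO3] and above it with [O]: for Thbs1 the log2 values were -0.84 with [SO3] and 0.30 with [O]. Fbn1, fibrillin-1, fell (log2 -0.76), as did Fmod, fibromodulin (log2 -0.75), Tnc, tenascin-C (log2 -0.71) and Fn1, fibronectin (log2 -0.63). Hyaluronan synthases went the other way: Has2 was at 117, 114 and 119 CPM with [SO3], against 54.3, 50.9 and 57.1 CPM with [O] (log2 fold change 1.11, SE 0.06, adjusted p = 1.75e-14), and Has1 rose (log2 1.31).

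Of 18 enzymes that modify or crosslink collagen, 11 fell and 2 rose, and the number that rose was 1 without [O] library 1. Tgm2, tissue transglutaminase, was at 3.59, 2.91 and 5.05 CPM with [SO3], against 10.3, 9.35 and 9.52 CPM with [O] (log2 fold change -1.33, SE 0.14, adjusted p = 6.68e-09). Loxl4, of the lysyl oxidase family, fell (log2 -0.74), as did P4ha2, a prolyl hydroxylase (log2 -0.56) and Lox (log2 -0.21). Serpinh1, the collagen chaperone HSP47, was not called, with a 95% interval of -0.11 to 0.04. Of 22 metalloproteinases and their inhibitors (30 in the table), 12 fell and 3 rose. Adamts5, an aggrecanase, was at 11.1, 9.82 and 9.70 CPM with [SO3], against 33.3, 32.9 and 31.9 CPM with [O] (log2 fold change -1.68, SE 0.08, adjusted p = 2.21e-15), and Mmp13, a rodent interstitial collagenase, fell (log2 -2.68) from low levels, while Mmp2, gelatinase A, rose (log2 0.58), as did Mmp14, its activator (log2 0.16).

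The plasmin system had 6 falls and 2 rises among 12 genes tested. Serpine2, protease nexin-1, fell (log2 -1.50), as did Plat, the tissue-type activator (log2 -0.62) and F3, tissue factor, which starts coagulation (log2 -0.84). Plaur, the receptor of urokinase, was at 66.4, 64.0 and 66.3 CPM with [SO3], against 39.2, 34.2 and 39.6 CPM with [O] (log2 fold change 0.80, SE 0.06, adjusted p = 1.03e-11), higher in every [SO3] library.

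Contractile and filament genes, which mark activated stellate cells, were lower with [SO3] in 18 of 23 tested and higher in 1, with a median of -0.38. Myh10, non-muscle myosin IIB, was at 754, 773 and 838 CPM with [SO3], against 1614, 1736 and 1659 CPM with [O] (log2 fold change -1.08, SE 0.04, adjusted p = 5.76e-18), and at 1413 ± 25.6 CPM with BSA. Tpm1, a tropomyosin, was at 375, 372 and 369 CPM with [SO3], against 649.7, 674 and 674 CPM with [O] (log2 fold change -0.84, SE 0.03, adjusted p = 6.67e-17), and at 436 ± 6.66 CPM with BSA. Acta2, smooth muscle actin, was at 583, 578 and 579 CPM with [SO3], against 1127, 1121 and 1173 CPM with [O] (log2 fold change -0.98, SE 0.03, adjusted p = 1.46e-18). In these genes [SO3] was below BSA and [O] above it, for Tpm1 at -0.23 with [SO3] and 0.61 with [O]. Myh11, smooth muscle myosin, fell (log2 -1.68) but was above BSA with both forms, at 1.31 with [SO3] and 2.99 with [O]. Fhl2, a LIM protein that follows actin signals, fell (log2 -0.98), as did Actn1, alpha-actinin (log2 -0.56). Des, desmin, was the member that rose (log2 0.31), and Vim, vimentin, was not called, with a 95% interval of -0.14 to 0.04.

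Genes of the Hippo-YAP pathway, which reads cell tension, fell in 18 of 21 and rose in 1. Cyr61, a classical YAP target, was at 145, 151 and 130.1 CPM with [SO3], against 343, 337 and 335 CPM with [O] (log2 fold change -1.25, SE 0.05, adjusted p = 7.34e-17). Ankrd1, another target, was at 2.97, 2.68 and 3.66 CPM with [SO3], against 7.40, 7.76 and 8.17 CPM with [O] (log2 fold change -1.32, SE 0.14, adjusted p = 1.33e-08), and Ctgf, connective tissue growth factor, at 1727, 1739 and 1648 CPM with [SO3], against 1975, 2015 and 2077 CPM with [O] (log2 fold change -0.25, SE 0.04, adjusted p = 5.11e-06). The groups did not overlap, but the position against BSA differed: with [O], Cyr61 was above BSA by 0.78, and Ctgf below it, at -0.34. Tead1, the DNA-binding partner of YAP, fell (log2 -0.81), and Fjx1 rose (log2 1.03). Among 13 integrins (15 in the table), 8 fell and 2 rose. Itgb8, a subunit of an integrin that activates TGF-beta, was at 7.11, 5.36 and 7.49 CPM with [SO3], against 22.4, 19.8 and 19.2 CPM with [O] (log2 fold change -1.62, SE 0.10, adjusted p = 7.27e-13), and Itga1, a collagen receptor subunit, fell (log2 -0.95). The integrin subunits Itgb5 and Itga6 rose, at log2 fold changes of 0.11 and 0.26.

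Of 31 genes of PDGF, TGF-beta and BMP signalling (35 in the table), 11 rose and 12 fell. Among ligands, Pdgfc was at 74.0, 70.3 and 75.6 CPM with [SO3], against 31.4, 31.6 and 30.4 CPM with [O] (log2 fold change 1.24, SE 0.05, adjusted p = 4.45e-16), Bmp2 at 22.8, 21.3 and 19.4 CPM with [SO3], against 11.1, 10.50 and 9.97 CPM with [O] (log2 fold change 1.00, SE 0.08, adjusted p = 8.41e-11) and Bmp6 at 36.7, 39.7 and 39.8 CPM with [SO3], against 101, 99.6 and 88.3 CPM with [O] (log2 fold change -1.31, SE 0.06, adjusted p = 5.05e-16). Pdgfc and Bmp2 were higher and Bmp6 lower in every [SO3] library. Tgfb1, the main profibrotic ligand, fell (log2 -0.27), while Tgfb2 and Tgfb3 rose, at log2 fold changes of 0.40 and 0.65. Among receptors, Pdgfra was at 66.4, 64.3 and 65.9 CPM with [SO3], against 409, 427 and 410.3 CPM with [O] (log2 fold change -2.66, SE 0.04, adjusted p = 1.90e-25), below BSA by a log2 value of -0.67 with [SO3] and above it by 1.99 with [O]. Tgfbr2, the ligand-binding TGF-beta receptor, was at 89.8, 93.3 and 96.3 CPM with [SO3], against 197, 181 and 167 CPM with [O] (log2 fold change -0.97, SE 0.05, adjusted p = 3.28e-14), and Tgfbr1, its signalling partner, rose (log2 0.25). Smad7, the inhibitory SMAD, rose (log2 0.36), Smad3, which carries the signal to the nucleus, fell (log2 -0.18), and Id3, a target of BMP signals, fell (log2 -0.98).

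Of 15 Notch genes tested, 6 rose and 5 fell. The target genes Hes1, Hey1 and Hey2 rose, at log2 fold changes of 1.22, 1.39 and 1.28, and Hes1 was at 9.52, 10.4 and 10.9 CPM with [SO3], against 4.77, 4.58 and 3.86 CPM with [O] (log2 fold change 1.22, SE 0.13, adjusted p = 9.11e-09). Their position against BSA differed. Hes1 was at 1.16 with [SO3] and -0.07 with [O], and Hey2 at 0.41 with [SO3] and -0.87 with [O]. Hey1 was below BSA with both forms, at -1.42 with [SO3] and -2.81 with [O]. The ligand Jag1 fell (log2 -0.58), as did Rbpj, the DNA-binding factor of the pathway (log2 -0.56). The number that fell was 3 in DESeq2. In Wnt signalling, 3 of 17 rose and 7 fell (27 in the table). Axin2, a feedback target of beta-catenin, was at 30.9, 31.8 and 38.9 CPM with [SO3], against 22.3, 18.3 and 19.1 CPM with [O] (log2 fold change 0.76, SE 0.09, adjusted p = 5.68e-08), with every [SO3] library higher, and Ror1, a receptor of the non-canonical branch, fell (log2 -0.88).

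Genes of mitosis were lower with [SO3], with 32 of 38 called lower and 1 higher, and a median of -0.59. Plk1, the kinase that drives entry into mitosis, was at 30.3, 29.9 and 33.9 CPM with [SO3], against 89.0, 84.5 and 86.1 CPM with [O] (log2 fold change -1.46, SE 0.05, adjusted p = 5.98e-18), and at 89.1 ± 2.58 CPM with BSA. Mki67, which encodes the proliferation antigen Ki-67, was at 159.5, 149 and 176 CPM with [SO3], against 328, 327 and 328 CPM with [O] (log2 fold change -1.02, SE 0.05, adjusted p = 1.22e-15), and at 328 ± 13.5 CPM with BSA. Cdc20, which activates the anaphase-promoting complex, was at 51.5, 49.6 and 50.9 CPM with [SO3], against 104, 102 and 110.5 CPM with [O] (log2 fold change -1.06, SE 0.04, adjusted p = 2.75e-16). The [SO3] libraries stood below the [O] and BSA libraries. Against BSA, [O] was not called for Plk1 (log2 -0.04) and was lower for Cdc20 (-0.12). The median of the list against BSA was -0.75 with [SO3] and -0.14 with [O]. The checkpoint genes Bub1 and Bub1b fell, at log2 fold changes of -1.04 and -1.20, as did Ccna2, cyclin A2 (log2 -0.88) and Top2a, topoisomerase II (log2 -0.82). The member that rose, Cdc25c at 0.17, lost its call in 8 of 11 alternatives.

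Of 31 genes of DNA replication, 7 rose and 12 fell. Pcna, the sliding clamp of DNA polymerases, was at 109, 115 and 104 CPM with [SO3], against 72.3, 75.6 and 73.5 CPM with [O] (log2 fold change 0.57, SE 0.05, adjusted p = 7.52e-10). Mcm10, a replication initiation factor, was at 24.0, 24.5 and 24.98 CPM with [SO3], against 18.5, 18.1 and 17.2 CPM with [O] (log2 fold change 0.45, SE 0.06, adjusted p = 1.64e-06), and Rrm2, a subunit of ribonucleotide reductase, at 97.1, 104 and 98.0 CPM with [SO3], against 129.9, 141 and 141 CPM with [O] (log2 fold change -0.46, SE 0.05, adjusted p = 5.86e-08). Pcna and Mcm10 were higher and Rrm2 lower in every [SO3] library. Mcm2, a subunit of the replicative helicase, fell (log2 -0.38) and was below BSA with both forms, at -0.80 with [SO3] and -0.43 with [O].

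**Figure D5:**
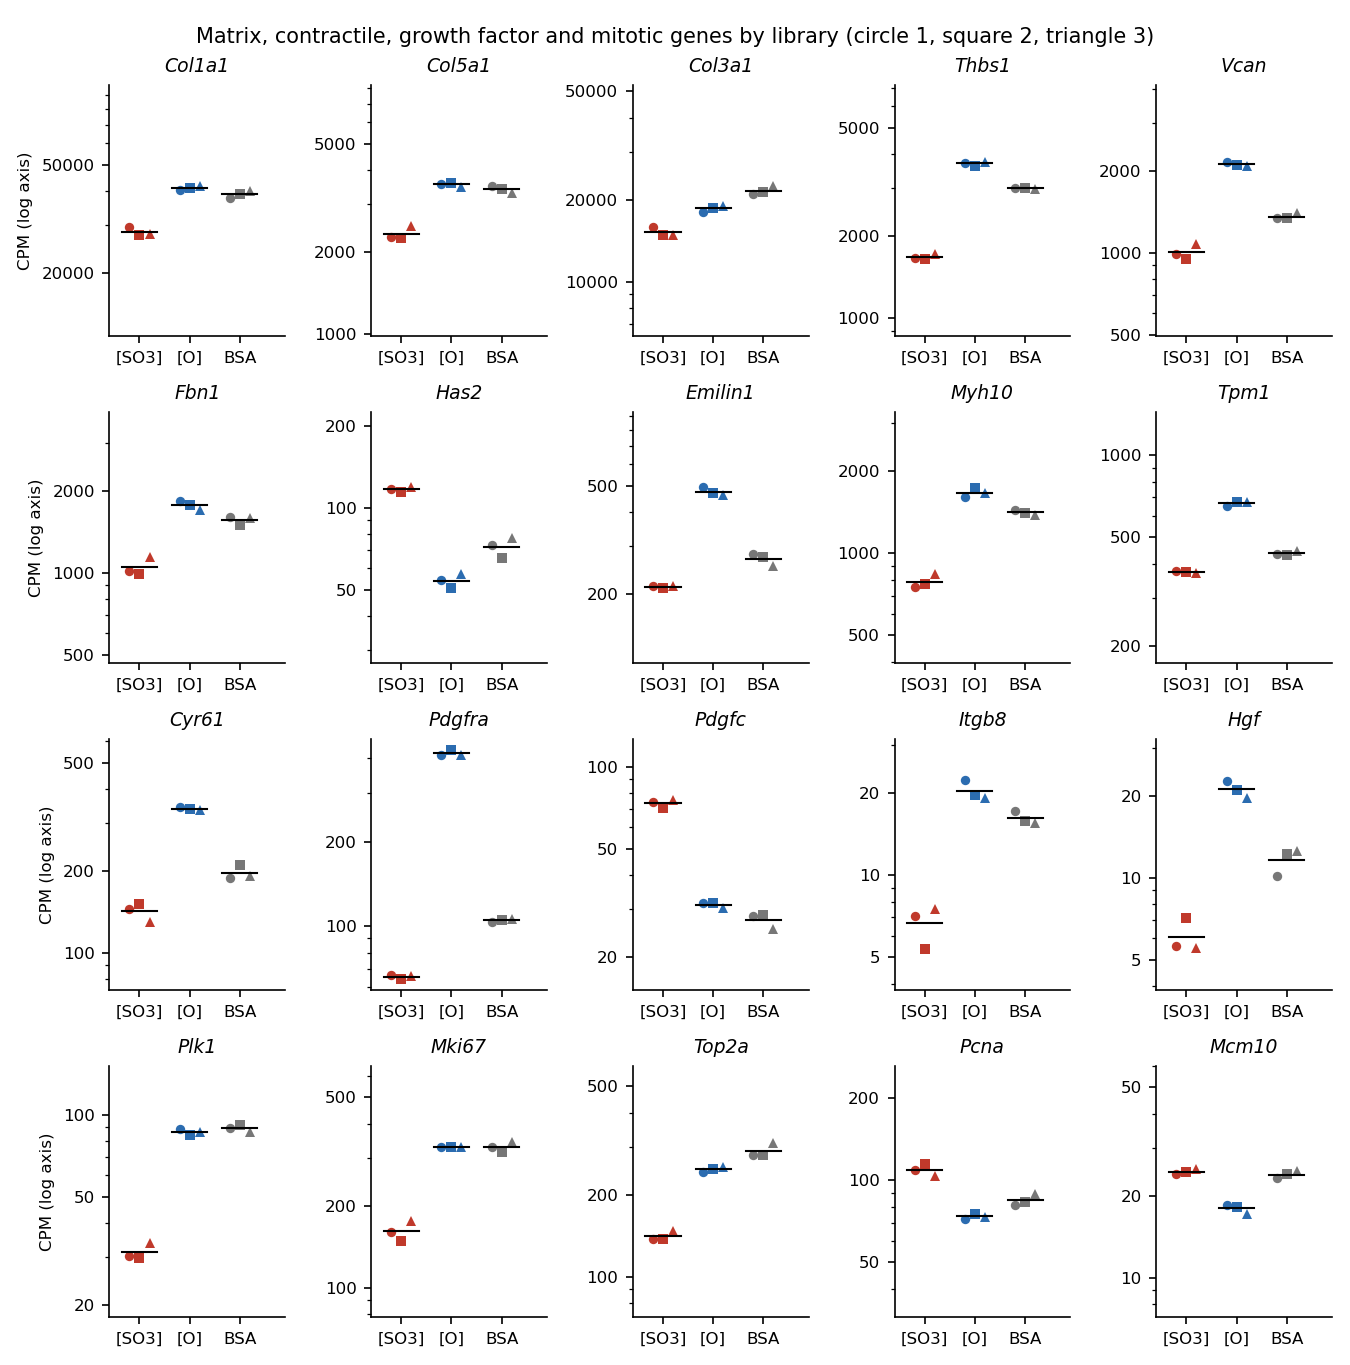
Levels by library (CPM, log axis, scaled separately for each gene) of 20 matrix, contractile, growth factor and cell cycle genes, for [SO3] (red), [O] (blue) and BSA (grey), with 3 libraries each as circle, square and triangle and the group mean as a bar. [SO3] was below [O] in 16 panels and above it in Has2, Pdgfc, Pcna and Mcm10. The [O] and BSA libraries overlapped in some panels, among them Plk1 and Mki67.

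Metabolic lists were mixed. Of 32 cholesterol genes, 8 rose and 14 fell. Hmgcs1, an early enzyme of the synthesis, was at 219.9, 233 and 238 CPM with [SO3], against 390.1, 398 and 406 CPM with [O] (log2 fold change -0.79, SE 0.04, adjusted p = 1.72e-14), whereas Insig1, a brake on the same pathway, rose (log2 0.34), as did Abca1, the cholesterol exporter (log2 0.37). Ch25h, which makes 25-hydroxycholesterol, fell (log2 -3.39) from low levels. Of 17 fatty acid genes, 4 rose and 5 fell (3 fell without [SO3] library 2). Dgat2, which completes triglycerides, rose (log2 0.83), and Acss2, which activates acetate, fell (log2 -0.47).

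Of 27 genes of glycolysis and the hypoxia response, 13 rose and 6 fell. Adm, the vasodilator adrenomedullin, was at 99.3, 93.3 and 105 CPM with [SO3], against 40.8, 38.1 and 41.4 CPM with [O] (log2 fold change 1.31, SE 0.05, adjusted p = 1.24e-16), and Egln3, an oxygen-sensing hydroxylase, at 2.72, 2.97 and 2.61 CPM with [SO3], against 11.6, 8.91 and 10.3 CPM with [O] (log2 fold change -1.89, SE 0.14, adjusted p = 2.23e-11). Both have groups that do not overlap, in opposite directions. Tpi1, a glycolytic enzyme, varied within groups, at 2.35, 209.7 and 168 CPM with [SO3], against 101, 196 and 188 CPM with [O], and was not called (log2 fold change -0.34, SE 1.19, adjusted p = 0.826). With BSA it was at 2.65, 191 and 293 CPM, so library 1 was low in both the [SO3] and the BSA group. Of 15 circadian clock genes, 7 rose and 3 fell, with Nr1d1, the repressor REV-ERB-alpha, at 73.9, 72.7 and 80.5 CPM with [SO3], against 30.9, 30.02 and 30.7 CPM with [O] (log2 fold change 1.31, SE 0.05, adjusted p = 1.17e-16) and Per3 lower (log2 -0.68). Of 18 autophagy and lysosome genes, 5 rose and 4 fell, and Gabarapl1, an autophagosome protein, was at 295, 286 and 277 CPM with [SO3], against 133, 137 and 135 CPM with [O] (log2 fold change 1.09, SE 0.04, adjusted p = 2.72e-17).

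Genes of resting stellate cells and retinoid handling were mostly too low to test, with 11 of 24 tested, of which 3 rose and 4 fell. Rarg, a retinoic acid receptor, fell (log2 -0.46), and Dhrs3, a retinal reductase, rose (log2 0.64). Ngfr, the neurotrophin receptor p75 of stellate cells, fell (log2 -0.64).

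Of 10 HMGB genes and reported receptors of HMGB1 tested (14 in the table), 3 rose and 3 fell. Hmgb1 itself was at 36.7, 37.2 and 35.8 CPM with [SO3], against 34.4, 38.8 and 37.4 CPM with [O], and at 40.8 ± 4.52 CPM with BSA. It was not called, with a log2 difference of -0.01 and a 95% interval of -0.16 to 0.14. Hmgb2, a chromatin protein of dividing cells, was at 99.5, 102 and 94.1 CPM with [SO3], against 127, 137 and 140.1 CPM with [O] (log2 fold change -0.45, SE 0.06, adjusted p = 3.65e-07). Ager, the gene of RAGE, was at 9.58, 7.99 and 7.61 CPM with [SO3], against 5.02, 5.41 and 6.30 CPM with [O] (log2 fold change 0.59, SE 0.13, adjusted p = 4.40e-04), with every [SO3] library higher. Ly96, the gene of MD-2, rose (log2 0.30), and lost its call in DESeq2 (adjusted p = 0.0635) and without [SO3] library 2 (0.0837) or [O] library 1 (0.0800). Together with Tlr4, these receptor genes were higher with [SO3] than with [O], while Tlr2 and the partner chemokine Cxcl12 were the lower members given above. Against BSA, Ager was higher with [SO3] (log2 0.57) and not called with [O] (-0.02). Tlr4 was not called with [SO3] (0.08) and was lower with [O] (-0.31), and Ly96 was not called with either form. Cxcr4, the receptor of Cxcl12, had too few counts to be tested.

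Some genes stood on opposite sides of BSA with the 2 forms. Above BSA with [SO3] and below it with [O] were Avpr1a, a vasopressin receptor, at log2 values of 1.16 with [SO3] and -0.82 with [O], and Star, which brings cholesterol into mitochondria, at 1.40 with [SO3] and -0.51 with [O]. Tgfa was at 1.28 with [SO3] and -0.52 with [O], and Ahr at 1.24 with [SO3] and -0.80 with [O]. Csrnp1, a nuclear protein of the early response, and Kcng1, a potassium channel subunit, were the others of largest difference, at log2 fold changes of 1.83 and 1.93. Below BSA with [SO3] and above it with [O] were Angpt1, the ligand of the vascular receptor TIE2, at -1.17 with [SO3] and 3.40 with [O], and Rassf4, a RAS-association protein, at -1.04 with [SO3] and 2.27 with [O]. Angpt1 was at 0.989, 1.08 and 1.16 CPM with [SO3], against 24.96, 28.2 and 24.4 CPM with [O], with a BSA level of 2.45 ± 0.482 CPM. Its [SO3] libraries were the lowest and its [O] libraries the highest of the 3 groups. Rasl11b, a RAS-like GTPase, had a log2 fold change of -2.31.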

How the data were processed

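RNA was extracted with miRNeasy kits and sequenced as TruSeq Stranded mRNA libraries, per the labels' protocols. The authors deposited raw counts of reads per gene in 1 table for the 12 rat cell libraries. The submitters' processing notes name the genome build mm10, a mouse build, although these libraries are labelled rat. Which aligner, counter, annotation and strandedness were used was not given in the sources used here, so genes that overlap or are near-identical may share counts. Reads assigned to no gene, 31.98% to 35.24% relative to the gene counts, and ambiguous reads, 0.282% to 0.325%, were left out. Every one of the 12 columns matched a sample.

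Genes were kept by edgeR's filter (a minimum count of 10 in enough libraries and 15 in all), which left 10140 of 17327. Counts were scaled by the trimmed mean of M-values (TMM) and fitted over the 4 groups with edgeR's quasi-likelihood test (edgeR 4.0.16, R 4.3.3), with Benjamini-Hochberg adjustment over all genes tested and 8 residual degrees of freedom. Intervals of 95% come from the fitted log2 fold change and its SE. Depth limits genes with few counts; intervals of ratios of counts are exact and, like the floor of 3 counts used for groups at 0, cover counting error only. Replicate numbers were not used in the fit. The scripts were tested on simulated data. Alternatives were RLE scaling, no filter on low counts, DESeq2 1.42.0, the replicate number as a block, a fit of only the groups of each contrast, and leaving out each library in turn.

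The groups compared, the gene lists and the genes named were chosen with earlier results of these data known. The genes named were the 15 largest rises and falls among called genes of at least 5 CPM without overlap, up to 6 called members of largest change in each list, the 8 largest differences each way among genes on opposite sides of BSA, and members whose role the account needs. Figures were drawn with matplotlib 3.10.9. Rat sequences were not used here.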

Additional observations from a re-analysis of the deposited data

How the results depend on the processing

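The number of genes called between [SO3] and [O] was 6000, and it ranged from 5502 to 6051 over the alternatives. With DESeq2 it was 5502 and with RLE scaling 6051. At 2-fold or more the number was 673, with 655 in DESeq2 and 849 without the filter on low counts. Leaving out each library in turn gave 5503 to 6017 called genes, and 4825 of the 6000 (80.4%) were called in all 6 of these fits, as were 638 of the 673. The scalings moved the median of all genes by less than 0.1 on the log2 scale (-0.0016 with TMM and 0.0056 with RLE scaling).

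With the replicate number as a block, 5850 genes were called, 2852 higher and 2998 lower. The deviations of [SO3] and [O] libraries of the same number from their group means correlated at -0.0416, -0.0334 and -0.182 across genes. Such correlations cannot exclude a shared culture or batch. Tpi1 was low in library 1 of both [SO3] and BSA, at 2.35 and 2.65 CPM. Whether libraries of the same number shared a culture or batch was not tested.

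A few list counts moved by more than 1.5 times. Without [O] library 1, the genes that rose were 3 in place of 6 for the unfolded protein response and 1 in place of 2 for collagen crosslinking. The mitosis genes that rose were 0 in place of 1 without the filter, in DESeq2, in the fit of only the groups compared and without any one library except [O] library 3. The gene was Cdc25c, at adjusted p of 0.0508 to 0.140 in those 8 fits. Notch genes that fell were 3 in place of 5 in DESeq2, and fatty acid synthesis genes that fell were 3 in place of 5 without [SO3] library 2.

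Uncalled genes changed sign in a few fits. Hmgb1 was at -0.01 with all libraries, 0.025 without [O] library 2 and 0.0011 without [SO3] library 3, with adjusted p of 0.805 and 0.990, and -0.060 at its lowest, without [O] library 1. Mx2 was at -0.69 with all libraries and 0.21 without [O] library 2 (adjusted p = 0.866), and -1.23 at its lowest, without [SO3] library 3. Tpi1 was at -0.34 with all libraries and 0.23 without [SO3] library 1 (adjusted p = 0.874), and -0.91 at its lowest, without [SO3] library 2. The cause of these shifts was not tested.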
